A study of Mus musculus with 20 samples.

Results

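Complement factors were followed in the epididymal white adipose tissue (eWAT) of lean, obese and SZ-A-treated mice. The set was a list of 9 gene names: Cfd (adipsin), C3, Cfb, the 3 C1q chain genes C1qa, C1qb and C1qc, C4b, and the anaphylatoxin receptor genes C3ar1 and C5ar1. Of these, 8 were among the 14776 genes with values, and Cfb was not analysed here. The 20 male C57BL/6J mice were 6 weeks old at the start and formed 3 groups. The NC group (n = 6) had normal chow throughout. The HFD group (n = 7) had feed with 60% of its energy as fat for 14 weeks and then for a further 6 weeks with saline given into the stomach. The SZ-A group (n = 7) had the same feed and, over those last 6 weeks, mulberry twig (Ramulus Mori) alkaloids into the stomach at 400 mg/kg each day. All mice were fasted overnight before eWAT was taken, so each value is from bulk eWAT of fasted males and not from sorted cells. Which part of the fat pad gave the RNA is not stated in the study's text.

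Complement is a cascade of plasma proteins that marks debris, immune complexes and microbes. It can start from C1q, a recognition protein built of A, B and C chains that works with the proteases C1r and C1s and then C4 and C2. It can also amplify itself through C3, factor B and factor D. Factor D is adipsin, the serine protease that cleaves factor B, and in mice fat cells are its main source. C3 and C5 release small peptides, the anaphylatoxins C3a and C5a, which act on myeloid cells through the receptors encoded by C3ar1 and C5ar1. In fat, C1q and both receptors are mostly products of macrophages, while C3 and C4 are also made by adipocytes and stromal cells.

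Cfd (ENSMUSG00000061780) lies on the plus strand at chr10:79890853-79892655 of GRCm38. The C1q genes lie side by side on the minus strand of chromosome 4, with C1qb at chr4:136880129-136886187, C1qc at chr4:136889804-136893065 and C1qa at chr4:136895917-136898803. In the GENCODE annotation, 0 exon bases of the 8 measured genes were shared with another gene. Promoter sequence was taken from RefSeq (GRCm38.p6) for the gene that moved against all the others, Cfd, and for C1qb and C1qc, which moved together. Each line gives bases before the start site, 5′ to 3′ on the gene's strand, and stops short of any exon of the gene. Capitals mark the motif GAGGAAGT, a sequence of the kind bound by the myeloid factor PU.1, here read on the opposite strand. The positions are chr10:79890603-79890852 for Cfd, chr4:136886201-136886450 for C1qb and chr4:136893066-136893164 for C1qc.
Cfd: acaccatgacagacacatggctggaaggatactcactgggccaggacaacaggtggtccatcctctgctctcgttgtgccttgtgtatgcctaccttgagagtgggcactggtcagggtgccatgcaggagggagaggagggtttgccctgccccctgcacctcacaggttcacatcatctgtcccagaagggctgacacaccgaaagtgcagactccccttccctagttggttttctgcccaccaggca
C1qb: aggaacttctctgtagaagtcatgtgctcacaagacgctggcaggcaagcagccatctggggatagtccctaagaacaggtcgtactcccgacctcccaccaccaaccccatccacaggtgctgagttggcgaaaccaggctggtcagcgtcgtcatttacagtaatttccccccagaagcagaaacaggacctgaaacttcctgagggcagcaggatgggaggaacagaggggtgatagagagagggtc
C1qc: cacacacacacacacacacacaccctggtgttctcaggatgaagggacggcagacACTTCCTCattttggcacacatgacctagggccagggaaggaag
Windows of 300 bases, from 250 before to 50 after the start, were searched on both strands for GAGGAAGT, TGTTTAC (forkhead), TTGCGCAA (C/EBP) and TATAAA. RefSeq promoters were matched for 6 of the 8 genes, and C1qa and C4b were named only. The C1qc window held GAGGAAGT, which 3.20% of 32851 promoter windows hold. C3 and C3ar1 each held TATAAA, found in 13.6% of windows. None of the 4 motifs was in the windows of Cfd, C1qb and C5ar1. TGTTTAC was in 3.65% and TTGCGCAA in 0.183% of all windows. A match is a description of the letters and no evidence of binding.

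Libraries held 13567667 to 19388628 reads on the listed genes, recovered from the FPKM (fragments scaled to exon length and library size) that the authors deposited. NC replicate 6 and SZ-A replicate 5 stood apart. NC replicate 6 had 26.6 FPKM of the adipocyte gene Adipoq, against 859 to 2278 in the other NC mice. Its 11 adipocyte markers summed to 284.5 FPKM, against 4652 to 11360 in the other NC mice. The same library had 452 FPKM of the keratin gene Krt18 and 3119 FPKM of Clu, a regulator also known as clusterin that is abundant in epididymal epithelium. Krt18 and Clu were both above 100 FPKM in 5 libraries, NC replicates 1, 2 and 6 and SZ-A replicates 2 and 7, and in 0 of the HFD libraries, where Krt18 reached at most 3.23 FPKM. SZ-A replicate 5 had 11.6% of its recovered reads on mitochondrial genes, against 1.67% to 5.11% in the other SZ-A mice, and the smallest library size implied by the values (13938406 fragments). Recovered reads on the listed genes exceeded the implied size in that library (15305451) and in some others, though not in all. In HFD replicate 1 they were 17216011, against an implied size of 15406889. Recovered totals and mitochondrial shares are therefore approximate, and the cause of the excess was not tested. Member fold changes against NC are given with and without NC replicate 6, and member counts also without the 5 libraries high in Krt18 and Clu. The part of these differences between libraries in the results was not tested beyond these values.

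In HFD against NC, 6 of the 8 measured members were higher, 1 (Cfd) was lower and 1 (C4b) did not pass (limma adjusted p under 0.05). Of all genes tested, 21.0% were higher and 20.1% were lower, so the members' calls were mostly in one direction while those of all genes were nearly even. Without NC replicate 6 the members split into 7 higher and 1 lower, beside 22.6% higher and 22.6% lower among all genes. A log2 fold change above 1.5 in addition was reached by 7 members, against 7.97% of all genes. For 6 members every HFD mouse was above every NC mouse, while 20.5% of all genes had groups that did not overlap in either direction. In SZ-A against HFD, 1 member (Cfd) was higher, 6 were lower and C4b did not pass, beside 9.47% higher and 13.3% lower among all genes. The fold limit was passed by 3 members (Cfd, C3ar1 and C5ar1), against 0.864% of all genes, and by 5 when HFD replicate 6, SZ-A replicate 5 or SZ-A replicate 6 was left out. Groups did not overlap for Cfd, C3 and C3ar1, that is 3 of 8, against 6.08% of all genes. Both comparisons use the same HFD mice, so opposite directions in them are not independent.

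In SZ-A against NC, 5 members were higher and 0 lower, beside 4.15% and 0.455% of all genes. The fold limit was passed by 5 members, against 1.79% of all genes. Groups did not overlap for 4 members (C1qb, C1qc, C3ar1 and C5ar1), against 3.57% of all genes. Without NC replicate 6 the counts were 5 higher and 1 lower, beside 4.63% and 0.870% of all genes, and the lower gene was Cfd. Without the 5 libraries high in Krt18 and Clu, an exclusion chosen after the data were seen that left 3 NC and 5 SZ-A mice, 1 member passed, C3ar1. Calls over all genes fell as well, from 611 higher and 67 lower of 14718 tested to 130 and 50 of 14695. Under the same exclusion the counts were 6 higher and 1 lower in HFD against NC, beside 3137 and 3136 of 14676 genes. In SZ-A against HFD they were 1 higher and 6 lower, beside 1747 and 2052 of 14648 genes.

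**Figure D1:**
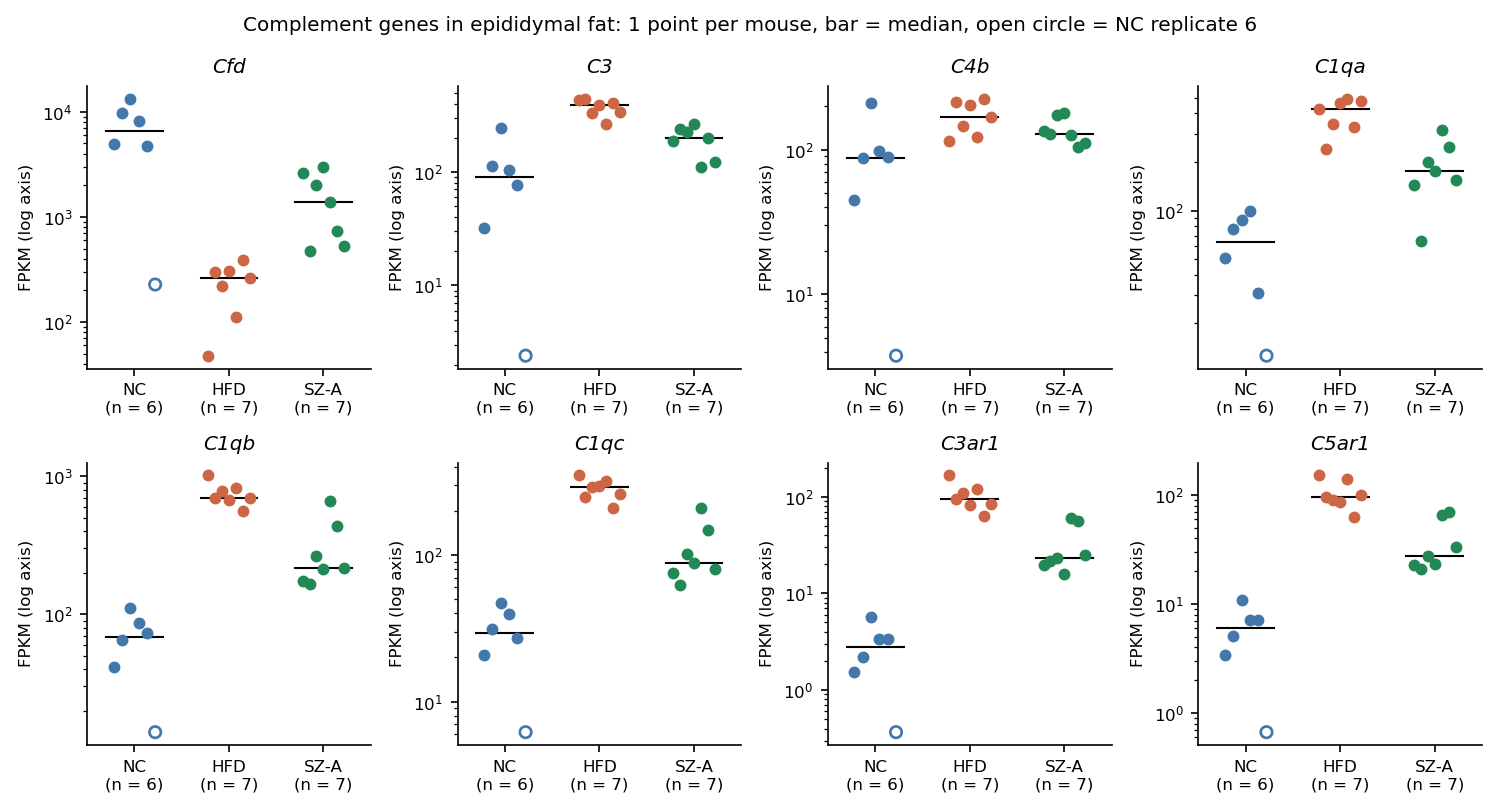
FPKM of the 8 measured members on log axes, 1 point per mouse, with the group median as a bar and NC replicate 6 as an open circle. Cfd was lowest in HFD mice, with NC replicate 6 (228 FPKM) inside their range, while C1qa, C1qb, C1qc, C3ar1 and C5ar1 were highest in HFD and intermediate in SZ-A by their medians.

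The order of levels within a group changed with it. In NC mice the median of Cfd was 6569.9 FPKM, while the other medians ran from 90.2 FPKM for C3 and 88.3 FPKM for C4b down to 2.78 FPKM for C3ar1. FPKM is per length of exon, so these levels can be set beside each other. In HFD mice C1qb led with a median of 696 FPKM, followed by C1qa with 423 FPKM and C3 with 392 FPKM, and Cfd came after these and C1qc with 262 FPKM. In SZ-A mice Cfd led again with a median of 1378 FPKM and C1qb followed with 216 FPKM. Neighbours in these orders mostly had overlapping ranges. In HFD mice the ranges of C1qa (240.3 to 493 FPKM) and C3 (264 to 440 FPKM) overlapped, as did those of C3ar1 and C5ar1 in each group. The genes were measured in the same mice, so an order can hold in each mouse despite such overlap. Every SZ-A mouse had more Cfd than C1qb, and every NC mouse more C5ar1 than C3ar1. The order of C1qa and C3 in HFD, and of C3ar1 and C5ar1 in HFD and SZ-A, varied between mice.

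Adipsin was the member with the widest range in FPKM. Cfd stood at 4925, 9743, 13266, 8215, 4730.5 and 228 FPKM in NC mice 1 to 6. The HFD mice ran from 47.9 over a median of 262 to 388 FPKM, and the SZ-A mice from 476 over 1378 to 2993 FPKM. Every SZ-A mouse was above every HFD mouse, and every NC mouse but replicate 6 was above every SZ-A mouse. Cfd was below NC in HFD mice (log2 -4.42, SE 0.84, limma adjusted p = 9.5e-04), a 21.4-fold difference of log2(FPKM + 1) means. Without NC replicate 6 it was 38.4-fold lower (log2 -5.26, SE 0.49, limma adjusted p = 2.2e-06). With SZ-A it was 6.20-fold higher than with HFD alone (log2 2.63, SE 0.52, limma adjusted p = 0.0033). Against NC the SZ-A mice did not pass (log2 -1.79, SE 0.87, limma adjusted p = 0.285), but without NC replicate 6 they did (log2 -2.63, SE 0.55, adjusted p = 0.013). In bulk tissue, fewer cells of a type and less RNA per cell cannot be told apart.

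The level of Cfd was therefore set against that of Adipoq, the gene of the adipocyte hormone adiponectin. Adipoq itself did not pass in HFD against NC (log2 -0.16, limma adjusted p = 0.90) unless NC replicate 6 was left out (log2 -1.13, adjusted p = 0.043), nor in SZ-A against HFD (log2 1.04, adjusted p = 0.084). The ratio of Cfd to Adipoq ran from 3.25 over a median of 6.09 to 8.56 in NC mice, from 0.216 over 0.280 to 0.335 in HFD mice and from 0.488 over 0.951 to 1.64 in SZ-A mice. The 3 groups did not overlap. NC replicate 6, with the lowest Adipoq of all libraries, had the highest ratio of all, 8.56. Per Adipoq, Cfd was 19.3-fold lower in HFD than in NC (log2 -4.27, SE 0.24), 3.03-fold higher in SZ-A than in HFD (log2 1.60, SE 0.25) and 6.38-fold lower in SZ-A than in NC (log2 -2.67, SE 0.33). Each of these had an exact two-sided permutation p of 5.83e-04, the smallest that these group sizes allow, and 0.00291 after adjustment over 30 tests of 10 ratios. Without NC replicate 6 the log2 differences from NC were -4.14 for HFD and -2.54 for SZ-A (exact permutation p = 0.00126 for each). With Plin1, a lipid droplet coat gene, in place of Adipoq the log2 differences were -4.83, 1.93 and -2.90.

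**Figure D2:**
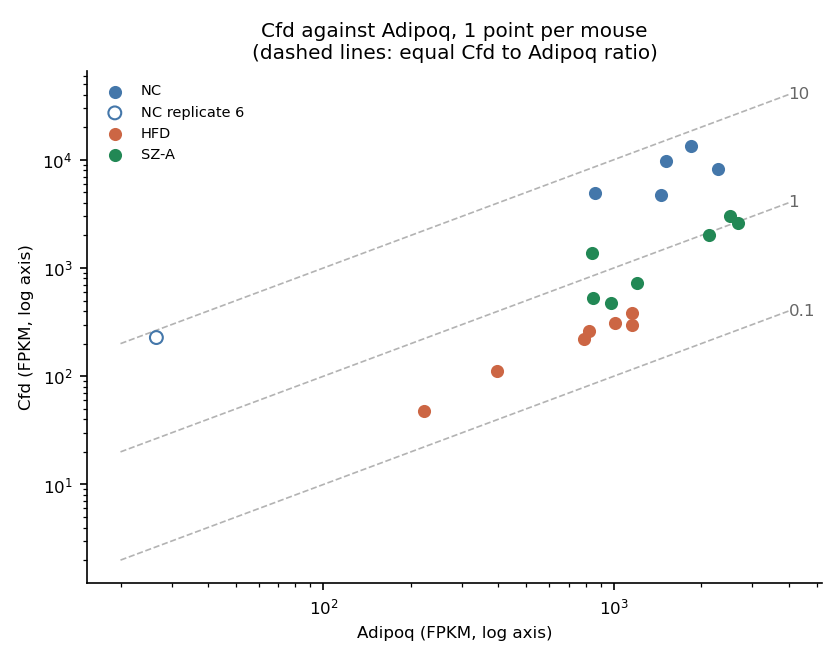
Cfd against Adipoq in FPKM on log axes, 1 point per mouse, with dashed lines of equal Cfd to Adipoq ratio (0.1, 1 and 10). The groups lie in separate bands, NC between ratios of 3.25 and 8.56, SZ-A between 0.488 and 1.64 and HFD between 0.216 and 0.335, and NC replicate 6 lies in the NC band at low Adipoq.

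Within a group the 2 genes moved together to different degrees. Over the 7 HFD mice, log2(FPKM + 1) of Cfd and Adipoq had a Pearson r of 0.991 (exact permutation p = 5.95e-04, adjusted p = 0.00536 over 9 relations) and a Spearman rho of 0.964 (exact permutation p = 0.00278, adjusted p = 0.025). Without the 2 HFD mice farthest from the median of Adipoq, r was 0.866 over the 5 left. HFD replicate 1 was lowest in both genes, and its adipocyte markers summed to 2153 FPKM, the least of the HFD mice, while its macrophage markers summed to 7466 FPKM, the most. Over the SZ-A mice r was 0.846 (exact permutation p = 0.0401, adjusted p = 0.0902) and rho 0.714 (exact permutation p = 0.0881, adjusted p = 0.231), so neither passed after adjustment. There r was 0.638 over the 5 mice left without the 2 farthest. In NC r was 0.978 (exact permutation p = 0.0194, adjusted p = 0.0583) and rho 0.771 (exact permutation p = 0.103, adjusted p = 0.231). Over the 4 NC mice left without the 2 farthest r was 0.387, and so few mice cannot show what the NC relation rests on. Cfd and C1qa had r = -0.389 in HFD and 0.365 in SZ-A (exact permutation p = 0.405 and 0.457), with rho -0.429 and 0.214 (exact permutation p = 0.354 and 0.662). Without the 2 mice farthest in C1qa these r were -0.0008 and -0.277. In NC r was 0.928 (exact permutation p = 0.00972, adjusted p = 0.0437), rho 0.829 (exact permutation p = 0.0583, adjusted p = 0.231), and r without the 2 mice farthest in C1qa 0.762. C1qa and Csf1r had r = 0.741 (NC), 0.066 (HFD) and 0.528 (SZ-A), with rho 0.543, 0.143 and 0.571, and exact permutation p from 0.075 to 0.896 for r and from 0.2 to 0.783 for rho. Without the 2 mice farthest in Csf1r, r was -0.122, -0.319 and -0.298 in the same order.

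The genes with the pattern most like that of Cfd, by Spearman rho over the 20 mice among 12450 genes averaging 1 FPKM or more, were Adig (rho 0.965), Retn (0.95), Fam13a (0.949), Agt (0.947) and Jag2 (0.947). Adig encodes adipogenin and Retn the adipocyte hormone resistin. Retn had group means of 496, 59.7 and 273 FPKM in NC, HFD and SZ-A. Group differences carry much of such a rho, so it is given as a description.

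The C1q genes rose together with HFD and were lower with SZ-A. C1qb, the B chain, ran from 13.9 over a median of 68.7 to 110.5 FPKM in NC mice, from 561 over 696 to 1017 FPKM in HFD mice and from 164 over 216 to 662 FPKM in SZ-A mice. The NC and HFD ranges were far apart, and among SZ-A mice replicate 5 alone, at 662 FPKM, reached into the HFD range. C1qb was 13.2-fold higher in HFD than in NC (log2 3.73, SE 0.38, limma adjusted p = 5.6e-06), or 10.2-fold without NC replicate 6. With SZ-A it was below HFD (log2 -1.46, SE 0.29, limma adjusted p = 0.0031) and 4.82-fold higher with SZ-A than in NC (log2 2.27, SE 0.46, adjusted p = 0.012), or 3.70-fold without NC replicate 6 (log2 1.89).

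C1qc, the C chain, ran from 6.18 over 29.2 to 46.9 FPKM in NC, from 208 over 291 to 349 FPKM in HFD and from 62.0 over 88.5 to 210.0 FPKM in SZ-A. The SZ-A and HFD groups touched only through SZ-A replicate 5, at 210.0 FPKM, and HFD replicate 6, at 208 FPKM. Its log2 fold changes were 3.45 (SE 0.36) for HFD against NC, -1.45 (SE 0.24) for SZ-A against HFD and 2.0 (SE 0.41) for SZ-A against NC, with limma adjusted p = 5.9e-06, 0.0012 and 0.012. The differences of C1qc from NC were 3.09 for HFD and 1.63 for SZ-A without NC replicate 6. C1qa, the A chain, ran from 12.6 over 63.6 to 99.1 FPKM in NC, from 240.3 over 423 to 493 FPKM in HFD and from 64.6 over 175 to 316 FPKM in SZ-A. Its SZ-A values overlapped both of the other groups. Its log2 fold changes were 2.95 (SE 0.41), -1.18 (SE 0.29) and 1.77 (SE 0.47) in the same order, with limma adjusted p = 8.3e-05, 0.010 and 0.046. Those from NC were 2.58 and 1.39 without NC replicate 6, and both passed (limma adjusted p = 9.3e-06 and 0.048). The SZ-A to NC call is a narrow one. It did not survive the removal of any 1 of 9 mice out of 13 (all SZ-A mice but replicate 2, and NC replicates 1, 2 and 5, limma adjusted p from 0.0654 to 0.107) nor the use of voom on the recovered reads (adjusted p = 0.061).

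The 3 chains are assembled into 1 protein, and their levels were compared with each other. The ratio of C1qc to C1qb ran from 0.371 to 0.497 in NC, from 0.343 to 0.440 in HFD and from 0.317 to 0.431 in SZ-A. It was slightly lower in HFD than in NC (log2 -0.24, SE 0.08, exact permutation p = 0.0111, adjusted p = 0.0415), a call that was lost without the 5 libraries high in Krt18 and Clu (log2 -0.14, exact permutation p = 0.158) and in a sign-flip test with the replicate number as a block (p = 0.0938). It did not differ detectably between SZ-A and HFD (log2 -0.0018, SE 0.072, exact permutation p = 0.976). The ratio of C1qa to C1qb varied more, from 0.427 to 1.21 in NC and from 0.346 to 0.690 in HFD, and its difference missed the threshold after adjustment (log2 -0.77, SE 0.28, exact permutation p = 0.0198, adjusted p = 0.054).

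Macrophage genes moved in the same direction as C1q. All 10 listed macrophage markers were measured, and 9 of them were higher and 0 lower in HFD against NC, while 8 were lower and 0 higher in SZ-A against HFD. The first count was 8 of 10 without NC replicate 6. Their summed level was 55.05 to 607 FPKM over the NC mice, 2369 to 7466 FPKM over the HFD mice and 1076 to 3537 FPKM over the SZ-A mice. Csf1r, the receptor that macrophages need for survival, had log2 fold changes of 3.32 in HFD against NC and -1.37 in SZ-A against HFD (limma adjusted p = 2.1e-05 and 4.3e-04). In SZ-A against HFD the log2 differences of the ratios to Csf1r were 0.20 (SE 0.29) for C1qa, -0.076 (SE 0.18) for C1qb and -0.078 (SE 0.16) for C1qc, none of which passed (exact permutation adjusted p = 0.657, 0.797 and 0.797). Without SZ-A replicate 5 the difference of C1qb was -0.23, with an unadjusted exact permutation p of 0.0455. In HFD against NC the ratio for C1qb was higher by 0.30 (SE 0.12, exact permutation adjusted p = 0.0486), and those for C1qa and C1qc did not pass (log2 -0.47 and 0.062). With Cd68, a lysosomal macrophage gene, as the reference the differences were -2.13 for C1qa, -1.36 for C1qb and -1.60 for C1qc (exact permutation p = 0.00175, 0.00699 and 0.00291).

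The anaphylatoxin receptors had the largest rises among the members. C3ar1, the receptor gene for C3a, ran from 0.367 over 2.78 to 5.76 FPKM in NC, from 63.5 over 94.7 to 166 FPKM in HFD and from 15.9 over 23.1 to 59.5 FPKM in SZ-A. The 3 groups did not overlap. NC replicate 6 gave 23 recovered reads, the fewest of any member. C3ar1 was 29.6-fold higher in HFD than in NC (log2 4.89, SE 0.32, limma adjusted p = 1.3e-07), or 24.8-fold without NC replicate 6. With SZ-A it was below HFD (log2 -1.78, SE 0.29, limma adjusted p = 0.0012) and above NC (log2 3.11, SE 0.39, limma adjusted p = 6.4e-04), by 2.85 without NC replicate 6.

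C5ar1, the main receptor gene for C5a, ran from 0.668 over 6.06 to 10.8 FPKM in NC, from 62.6 over 96.7 to 152 FPKM in HFD and from 21.1 over 27.8 to 70.0 FPKM in SZ-A. SZ-A replicates 5 and 6 reached the lower end of the HFD range, and no HFD or SZ-A mouse reached the NC range. The log2 fold changes were 4.15 (SE 0.38) for HFD against NC, -1.55 (SE 0.29) for SZ-A against HFD and 2.60 (SE 0.43) for SZ-A against NC (limma adjusted p = 1.9e-06, 0.0023 and 0.0036). The differences from NC were 3.79 and 2.25 without NC replicate 6. C5ar2, the second C5a receptor, moved alike, by 2.42 in HFD against NC and -1.12 in SZ-A against HFD (limma adjusted p = 6.7e-08 and 0.0026).

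Both receptor genes were also higher in HFD and SZ-A than in NC when read per Csf1r. The ratio of C3ar1 to Csf1r ran from 0.130 to 0.196 in NC, from 0.565 to 0.946 in HFD and from 0.329 to 0.841 in SZ-A. It was 4.31-fold higher in HFD than in NC (log2 2.11, SE 0.13) and 3.19-fold higher in SZ-A than in NC (log2 1.67, SE 0.19), with an exact permutation adjusted p of 0.00291 for each. The ratio of C5ar1 to Csf1r was 2.12-fold higher in HFD than in NC (log2 1.09, SE 0.15, exact permutation adjusted p = 0.00291) and 1.86-fold higher in SZ-A than in NC (log2 0.89, SE 0.20, adjusted p = 0.005). Between SZ-A and HFD the ratios differed by -0.43 (SE 0.19, exact permutation p = 0.0373, adjusted p = 0.0932) for C3ar1 and by -0.19 (SE 0.18, adjusted p = 0.492) for C5ar1, and neither passed after adjustment. Without SZ-A replicate 5 the C3ar1 difference was -0.55 (unadjusted exact permutation p = 0.00466). These differences depend on the reference gene. Cd68 had a log2 fold change of 5.05 in HFD against NC, where Csf1r had 3.32, and per Cd68 the HFD to NC difference was 0.45 for C3ar1 and -0.58 for C5ar1 (exact permutation p = 0.433 and 0.273).

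**Figure D3:**
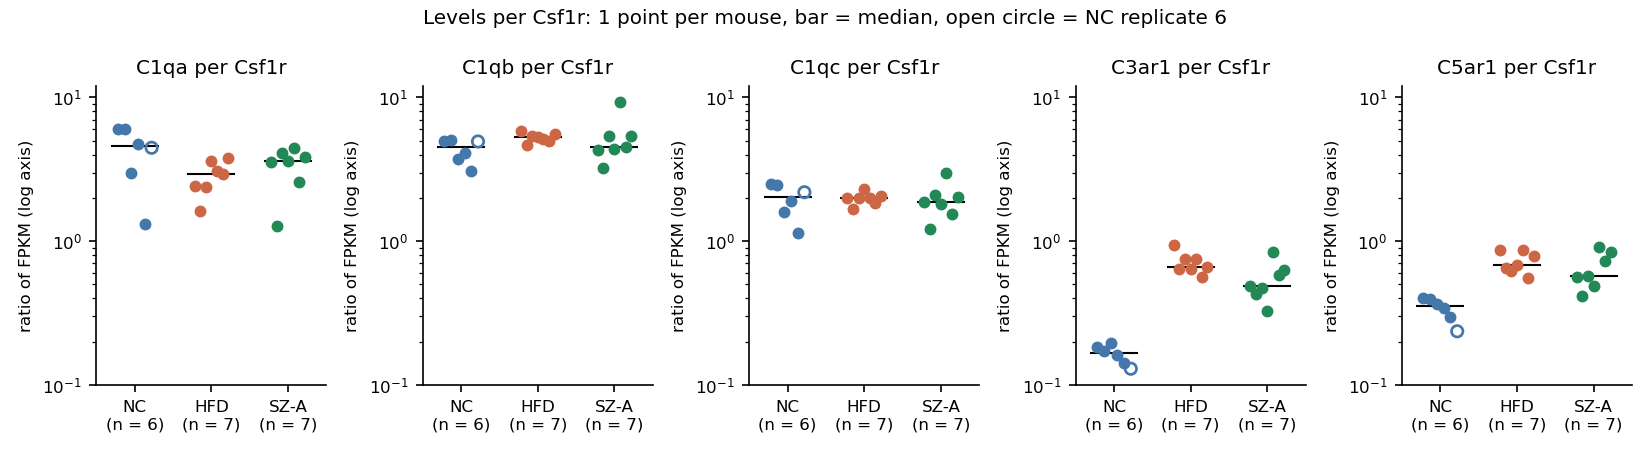
Ratios of FPKM of 5 members to the macrophage gene Csf1r on a shared log axis, 1 point per mouse, with the group median as a bar and NC replicate 6 as an open circle. The C1q ratios of the 3 groups overlap, while the ratios of C3ar1 (NC at most 0.196) and C5ar1 (NC at most 0.405) in HFD and SZ-A mice all lie above those of the NC mice.

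C3, the central protein of the cascade, ran from 2.40 over 90.2 to 244 FPKM in NC, from 264 over 392 to 440 FPKM in HFD and from 110.1 over 197 to 262 FPKM in SZ-A. Every HFD mouse was above every mouse of the other groups, by a small margin over SZ-A replicate 4 at 262 FPKM. C3 was 6.74-fold higher in HFD than in NC (log2 2.75, SE 0.74, limma adjusted p = 0.0096), and 3.87-fold higher without NC replicate 6 (log2 1.95, SE 0.37, adjusted p = 8.1e-04). With SZ-A it was below HFD (log2 -0.99, SE 0.21, limma adjusted p = 0.0043), a call that was lost when all 3 groups were fitted together (adjusted p = 0.284). SZ-A against NC did not pass with all mice (log2 1.76, SE 0.76, limma adjusted p = 0.223) or without NC replicate 6 (log2 0.96, 1.95-fold, adjusted p = 0.207), but passed narrowly with array quality weights (log2 1.12, adjusted p = 0.049).

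C4b, the gene of complement C4, overlapped in all 3 groups. It ran from 3.77 over 88.3 to 212 FPKM in NC, from 115 over 169 to 225 FPKM in HFD and from 104 over 129.6 to 179.8 FPKM in SZ-A. The log2 differences were 1.53 (SE 0.66) for HFD against NC, -0.30 (SE 0.19) for SZ-A against HFD and 1.23 (SE 0.65) for SZ-A against NC (limma adjusted p = 0.079, 0.25 and 0.33). HFD against NC passed without NC replicate 6, at a smaller log2 fold change of 0.81 (SE 0.31, limma adjusted p = 0.047), and without NC replicate 3, at 1.91 (adjusted p = 0.0278). It also passed with all 3 groups in 1 fit (1.53, limma adjusted p = 0.0333) and with array quality weights (0.94, adjusted p = 0.019). SZ-A against NC was 0.51 without NC replicate 6 (limma adjusted p = 0.397). C4a, a nearly identical copy, was at 0.01 to 0.62 FPKM, and the way reads were shared between the copies is uncertain. Pdgfra, a gene of fibroblast progenitors, was higher in HFD than in NC (log2 1.11, limma adjusted p = 0.027) and lower in SZ-A than in HFD (log2 -0.80, adjusted p = 0.013). Per Pdgfra, C3 differed by -0.12 (SE 0.17) and C4b by 0.57 (SE 0.30) between SZ-A and HFD (exact permutation adjusted p = 0.657 and 0.202). C4b per Pdgfra differed by 0.35 (SE 1.21) between HFD and NC with all mice and by -0.84 without NC replicate 6 (exact permutation p = 0.977 and 0.0177). C3 per Pdgfra differed by 1.61 (SE 1.33) and by 0.31 in the same 2 settings (exact permutation p = 0.119 and 0.399). With Dcn, another fibroblast progenitor gene, as the reference, the C3 difference over all mice was 1.39 (exact permutation p = 5.83e-04). NC replicate 6 had the highest Pdgfra of all mice, 32.5 FPKM, against 3.74 to 11.3 FPKM in the other NC mice.

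The rest of the cascade was read from a written list of 51 further complement genes, of which 34 had values. In HFD against NC 13 were higher and 3 lower of 32 tested, beside 21.0% higher and 20.1% lower among all genes. In SZ-A against HFD 3 were higher and 12 lower of 33 tested, beside 9.47% and 13.3%, so the higher calls were near the share of all genes. Without NC replicate 6 the first split was 15 higher and 8 lower, beside 22.6% each way, so the lower calls there were near that share. The median log2 fold changes over the list were 0.62 and -0.26, beside 3.20 and -1.32 over the 8 members and -0.041 and 0.031 over all genes tested. Without NC replicate 6 the HFD to NC median was 0.34 over the list and 2.83 over the members. The receptors moved most uniformly, with 7 of 10 tested higher in HFD against NC and 7 of 10 lower in SZ-A against HFD, and their medians were 2.60 and -1.10. In HFD against NC without NC replicate 6 the receptors had 8 higher and 1 lower, with a median of 2.28. Itgax and Itgb2, which form the iC3b receptor CD11c/CD18, were higher in HFD by 5.62 (SE 0.27) and 5.47 (SE 0.46) on the log2 scale, and with SZ-A they differed from HFD by -1.79 and -1.54 (limma adjusted p = 0.0010 and 0.0062). Itgam, the partner of Itgb2 in the other iC3b receptor, had log2 fold changes of 2.86 and -1.19 (limma adjusted p = 1.6e-05 and 0.036). Lair1, an inhibitory collagen receptor that also binds C1q, had 3.05 and -1.70. Lrp1, a clearance receptor, had 2.78 and -1.08, and Cd93, once described as a C1q receptor, had 2.32 and -0.93. Each of these 3 receptors passed in both comparisons.

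Among the initiators, the protease genes that act with C1q, C1ra and C1s1, were lower with SZ-A than with HFD by log2 fold changes of -0.84 (SE 0.14) and -0.78 (SE 0.16) (limma adjusted p = 0.0012 and 0.0042). C1ra ran from 36.7 to 51.7 FPKM in HFD and from 18.0 to 30.4 FPKM in SZ-A, without overlap. Colec12, a scavenger collectin, was lower by a log2 fold change of -1.21 (limma adjusted p = 0.0011). Masp2 passed with a log2 fold change of 0.25 (limma adjusted p = 0.018), at means of 0.0426 and 0.245 FPKM, that is 1 to 6 reads per HFD mouse and 3 to 24 per SZ-A mouse. Among the regulators, Serping1, the C1 inhibitor, was lower with SZ-A by a log2 fold change of -0.75 (SE 0.21, limma adjusted p = 0.019). It was higher in HFD than in NC by 2.22 with NC replicate 6 included. That mouse had 3.72 FPKM of Serping1, against 72.6 to 168 FPKM in the other NC mice. Cd59b, an inhibitor of the membrane attack complex, was higher with SZ-A by 0.66 (SE 0.23, limma adjusted p = 0.047), and C8g, a chain of the terminal component C8, by 0.64 (SE 0.11, adjusted p = 0.0017). Cd59b ranges overlapped, from 1.95 to 5.22 FPKM in HFD and from 3.80 to 9.74 FPKM in SZ-A. Its more abundant paralog Cd59a, with means of 86.0 FPKM in HFD and 141 FPKM in SZ-A, was not called.

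Clu was lower in HFD than in NC (log2 -3.53, SE 0.86, limma adjusted p = 0.0051), and by -2.72 without NC replicate 6, with 10.2 over 15.6 to 23.4 FPKM in HFD and 45.9 over 89.5 to 3119 FPKM in NC. The highest Clu values were in libraries with high Krt18, and their part in this difference was not tested. C2, the partner of C4 in the classical convertase, shares 1656 of its 3872 exon bases with Gm20547, so its value is uncertain. It did not pass in HFD against NC (log2 -0.92, limma adjusted p = 0.152) or in SZ-A against HFD (adjusted p = 0.063). Without NC replicate 6 every HFD mouse was below every NC mouse, and it passed as lower in HFD (log2 -1.44, SE 0.25, limma adjusted p = 5.3e-04).

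**Figure D4:**
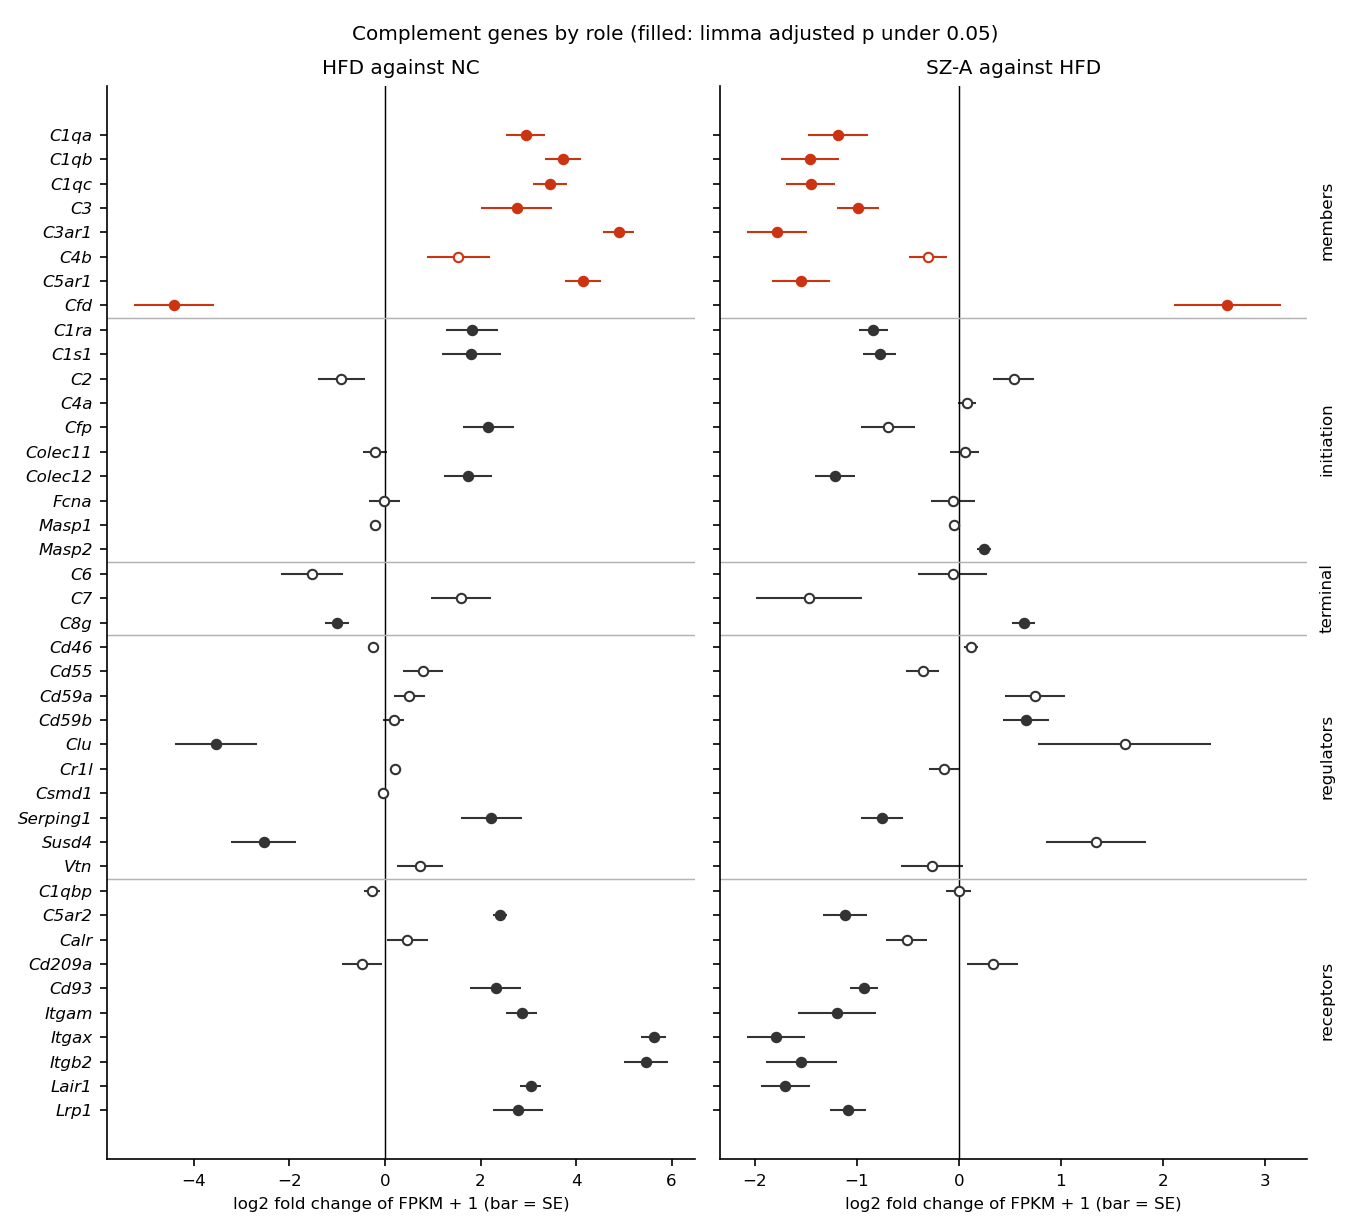
Log2 fold changes of FPKM + 1 with standard errors for the 8 measured members (top block) and other listed complement genes by role, for HFD against NC (left) and SZ-A against HFD (right), filled where the limma adjusted p is under 0.05. Cfd is the only member left of 0 in HFD against NC (-4.42) and right of 0 in SZ-A against HFD (2.63), while C3ar1 (4.89 and -1.78) and most receptors lie on the opposite sides.

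The genes most like C1qa over the 20 mice were Dhx38 (rho 0.982), Emilin1 (0.976), Hcls1 (0.976), Man1c1 (0.976) and Rcn3 (0.974). In that order their NC means were 6.645, 3.642, 5.082, 6.265 and 12.61 FPKM. The HFD means were 11.98, 12.69, 43.6, 41.29 and 36.63 FPKM. Those of SZ-A were 9.263, 6.723, 20.31, 19.89 and 23.44 FPKM. Group differences carry much of these rho values too, so they are given as a description. In the same 20 mice lipid-associated macrophage markers, a list led by Trem2, were higher in HFD than in NC for 7 of 7 genes and lower with SZ-A than with HFD for 7 of 7 genes, with sums of 108 to 177 FPKM in NC, 2085 to 5641 FPKM in HFD and 679.9 to 2949 FPKM in SZ-A. Of 7 fibroblast progenitor markers, 5 were higher and 1 lower in HFD against NC, and 0 were higher and 6 lower in SZ-A against HFD. Of 11 adipocyte markers, 1 was higher and 1 lower in HFD against NC and 1 was higher in SZ-A against HFD, while without NC replicate 6 the first split was 1 higher and 6 lower. Without the 5 libraries high in Krt18 and Clu, 8 of the 11 were higher and 0 lower in SZ-A against HFD, 5 of them without overlap. Of the other lists, endothelial markers (4 of 4 measured) had 0 calls in both comparisons, and the 1 neutrophil marker measured of 7 was higher in HFD, though not without NC replicate 6. Of 6 mesothelial markers 3 were measured and 2 were lower in HFD, of 8 epididymis markers 2 were measured, both lower in HFD and both higher with SZ-A, and of 6 hepatocyte markers 0 were measured. These lists are RNA levels in bulk tissue. Whether cell makeup differed, and its part in the members' changes, was not tested.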

How the data were processed

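Poly(A) RNA from eWAT of 20 mice was sequenced as paired-end reads, aligned to GRCm38 with HISAT2 and counted with featureCounts 1.5.0-p3 (submitters' processing notes). The authors deposited FPKM for 14776 genes, each above 0 in every mouse, so a gene at 0 in any mouse had been left out. The annotation release and that filter are not given in the sources used here. Reads were recovered from FPKM and GENCODE M21 exon lengths (14770 genes matched). Of values under 1000 reads, 95.9% to 96.3% per mouse were whole within 0.01 reads, a share that the choice of step partly builds in. In some mice the recovered total exceeded the implied library size, so not all recovered reads can be right.

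Groups were taken from the titles (6 NC, 7 HFD and 7 SZ-A, where the study's text gives 7 each) and compared pairwise with limma 3.58.1 in R 4.3.3 (lmFit, eBayes with trend). The fit used log2(FPKM + 1), which understates fold changes of low genes, for genes averaging 0.1 FPKM or more, with Benjamini-Hochberg adjustment over all of them. Ratios and correlations were tested by two-sided exact permutation in Python 3.11.15 (NumPy 2.4.6, SciPy 1.17.1, pandas 2.3.3; plots with matplotlib 3.10.9). The limma steps were checked on simulated data. The members and gene lists were chosen with earlier results of these data known. The genes named were every member, other complement genes called in SZ-A against HFD or among the 6 largest called in HFD against NC, C4a, the reference genes, and the 5 most similar to Cfd and to C1qa. Some genes under this rule are not reported here. C2, Cd59a and Krt18 were added after values were seen. Alternatives were a pseudocount of 0.1, no filter or 1 FPKM, median-ratio scaling, all 3 groups in 1 fit, array quality weights, a block for replicate number, voom on recovered reads, leaving out mice, and other reference genes. The labels give no housing or batch.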

Additional observations from a re-analysis of the deposited data

Results flagged for a closer look

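Cfd in NC replicate 6 was 228 FPKM and lay far below the other NC mice. On the log2(FPKM + 1) scale its gap to the next mouse was 0.746 of the group's range, above Dixon's critical value of 0.625 for 6 samples. It was the 1 flag among 24 combinations of member and group tested, where chance flags about 1 in 20. The same library had the lowest Adipoq, 26.6 FPKM, and the highest ratio of Cfd to Adipoq, 8.56.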

How the results depend on the processing

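In SZ-A against HFD, 3 members passed the fold limit, 5 with array quality weights, 7 with a limit of 1.5-fold and 2 to 5 when 1 mouse was left out. Of the other complement genes 15 were called there, and 8 with all 3 groups in 1 fit. Calls over all genes went from 1392 higher and 1957 lower to 725 and 1364 in that fit. In SZ-A against NC, 5 members were called, 5 passed the fold limit and 7 other complement genes were called. With the replicate number as a block these fell to 1, 1 and 3, and without the 5 libraries high in Krt18 and Clu, which leaves fewer mice, also to 1, 1 and 3. Over all genes, 611 higher and 67 lower calls fell to 152 and 15 with the block and to 130 and 50 without those libraries. Genes past the fold limit fell from 263 to 116 and to 102. Array quality weights gave 12 other complement genes, beside 1713 higher and 926 lower calls over all genes. With Cd68 in place of Csf1r the log2 ratio differences changed sign for C1qb (-1.36), C1qc (-1.60) and C5ar1 (-0.58) in HFD against NC, for C1qb (-1.18) and C5ar1 (-0.51) in SZ-A against NC and for C1qb (0.18), C1qc (0.18) and C5ar1 (0.069) in SZ-A against HFD. Those of C1qa and C3ar1 kept their sign, but C3ar1 lost its calls against NC. The cause of these shifts was not tested. Member counts in HFD against NC, and calls of members in SZ-A against HFD, stayed within 1.5 times under every alternative run.

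Same-numbered mice of 2 groups had deviations correlated between -0.41 and 0.58. Those of replicate 4 were 0.30 for HFD and NC, 0.37 for SZ-A and HFD and 0.58 for SZ-A and NC. Correlating best with their own number were 1 of 12 mice in HFD and NC, 2 of 14 in SZ-A and HFD and 2 of 12 in SZ-A and NC. With so few mice these values cannot show whether the numbers mark a shared housing or batch. In the block fit 7 members were called in HFD against NC and 7 in SZ-A against HFD, as without it. Depth sets a limit for C3ar1 in NC replicate 6 (23 reads) and for Masp2 (1 to 6 reads per HFD mouse).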
